A study of Mus musculus with 92 samples.

Results

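The 9 genes described here, which mark natural killer cells and cytotoxic lymphocytes, were followed in whole blood of G93A-SOD1 and wild type mice. They were Klrb1c, Klrd1, Ncr1 and Il2rb, which encode receptors, Prf1, Gzma, Gzmb and Nkg7, which encode proteins of the killing granule, and Ccl5, which encodes a chemokine. The genes were chosen by symbol, as the brightest detected probe annotated to each symbol, out of 15967 genes with a symbol on the array. Of these, 6 passed the filter on low values in blood (a detection p-value under 0.05 on at least 7 arrays) and stood among 8403 genes tested there. The other 3, Gzma, Gzmb and Ncr1, were detected on 0 of 31 blood arrays and entered no test.

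The study measured gene expression on 92 Illumina bead arrays, in blood, in the tibialis anterior, a leg muscle, and in the lumbar part of the spinal cord. The mutant mice, B6.Cg-Tg(G93A-SOD1)1Gur/J, express a mutant form of human superoxide dismutase 1 from a transgene and are used to model amyotrophic lateral sclerosis. The comparison mice were wild type littermates, and the labels give no sex for either. Blood was measured on 8 G93A-SOD1 and 8 wild type arrays at 70 days, and on 8 G93A-SOD1 and 7 wild type arrays at 100 days. In all blood groups the RNA was stabilised in PAXgene tubes, and hemoglobin transcripts were removed from it. Whole blood RNA is a mixture of all blood cells, so fewer natural killer cells and less RNA per cell cannot be told apart.

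Natural killer cells are lymphocytes that kill infected, stressed or tumour cells without prior sensitisation. They read a balance of activating and inhibitory receptors, many of them lectin-like proteins of a gene complex on mouse chromosome 6, which includes Klrb1c and Klrd1. After activation they release granules, from which perforin forms pores in the target membrane and granzymes enter to start cell death. Cytotoxic T cells use the same granules and also express Ccl5, Nkg7, Klrd1 and Il2rb, so these genes do not mark one cell type alone. In amyotrophic lateral sclerosis both cell types have been studied as blood cells that may reach the spinal cord and the muscle.

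The blood label was checked against defining markers of blood cells. Neutrophil S100a8 and S100a9, B cell Cd79a, T cell Cd3e, red cell Alas2, platelet Pf4 and monocyte Lyz2 were each detected on 31 of 31 blood arrays. Besides Ncr1, the genes Klrc1, Klrb1a, Klra1, Klra3 and Itgam were detected on 0 of 31 blood arrays. They were among 24 other genes on the array that were listed as natural killer receptors. For these genes a low level and a probe that reads its transcript poorly were not told apart. Blood arrays detected 6809 to 9691 probes (median 8309), and 1 array, wild type replicate 6 at 70 days, stood apart by a median raw intensity of 190.8, where the next highest was 93.6. Precision is limited by the number of arrays. Levels below are log2 values after background correction and quantile normalization within blood, and a log2 difference is the G93A-SOD1 mean minus the wild type mean. The labels do not say that each array is a separate animal, so the p-values measure the spread between these samples.

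Promoter sequence was available for 6 of the 9 genes, and the 250 bases before the annotated start are shown for 3 of the genes that were measured in blood, since their levels are compared with each other below. They are RefSeq sequences of build GRCm38.p6, printed 5′ to 3′ on the strand of the gene. Klrb1c lies at chr6:128788642-128788891 on the minus strand, Nkg7 at chr7:43436888-43437137 on the plus strand and Prf1 at chr10:61297586-61297835 on the plus strand. Capitals mark the letters TGTGGT, the core that RUNX factors recognise, and AGGTGT, a core of T-box factors such as T-bet and Eomes, on either strand, where the reverse complements read ACCACA and ACACCT. Matches of the 2 motifs did not overlap in these windows.
Klrb1c: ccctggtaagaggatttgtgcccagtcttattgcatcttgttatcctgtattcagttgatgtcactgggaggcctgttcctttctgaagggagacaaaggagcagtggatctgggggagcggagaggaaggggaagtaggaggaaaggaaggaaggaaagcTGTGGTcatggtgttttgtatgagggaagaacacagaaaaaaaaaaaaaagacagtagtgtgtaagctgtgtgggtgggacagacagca
Nkg7: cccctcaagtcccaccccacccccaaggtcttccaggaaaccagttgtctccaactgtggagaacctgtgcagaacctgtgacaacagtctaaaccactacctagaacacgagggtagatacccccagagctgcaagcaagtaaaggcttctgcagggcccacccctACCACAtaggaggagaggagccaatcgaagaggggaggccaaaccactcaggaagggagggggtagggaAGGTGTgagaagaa
Prf1: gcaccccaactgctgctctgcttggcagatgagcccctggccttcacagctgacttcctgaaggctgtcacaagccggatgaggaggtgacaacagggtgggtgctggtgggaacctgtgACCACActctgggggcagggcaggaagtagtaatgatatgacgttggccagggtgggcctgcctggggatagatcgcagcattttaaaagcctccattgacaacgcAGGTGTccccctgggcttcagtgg
The RUNX letters were present in the windows of all 6 genes with an entry (Klrb1c, Ncr1, Nkg7, Prf1, Gzma and Gzmb), and in 14.0% of all 32851 promoter windows of the same length. The T-box letters were present in Nkg7, Prf1 and Gzma, and in 11.8% of all windows. In Nkg7 the T-box match began 14 bases before the start and in Prf1 24 bases before it. The TATA letters TATAAA were present in 0 of the 6 genes and in 12.4% of all windows. Ncr1 has 2 annotated starts, whose windows hold the same RUNX matches. A match is a description of these letters. Klrd1, Ccl5 and Il2rb are named here without a sequence.

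Klrb1c encodes the lectin-like receptor that the antibody NK1.1 recognises on natural killer cells of C57BL/6 mice. Its level lay between 6.59 and 7.80 (median 7.07) in G93A-SOD1 blood at 70 days, against 6.97 to 7.92 (median 7.38) in wild type blood. At 100 days it lay between 6.48 and 7.72 (median 7.33) in G93A-SOD1 blood, against 7.13 to 8.08 (median 7.62) in wild type blood. The ranges overlapped at both ages. Klrb1c averaged 7.07 ± 0.37 in G93A-SOD1 blood and 7.43 ± 0.30 in wild type blood at 70 days (SD, n = 8 each). The log2 difference was -0.35 (SE 0.18, 95% interval -0.72 to 0.02), which did not pass limma's test (adjusted p = 0.795). At 100 days the means were 7.26 ± 0.45 in G93A-SOD1 blood (n = 8) and 7.54 ± 0.35 in wild type blood (n = 7), a log2 difference of -0.28 (SE 0.19, limma adjusted p = 1). The 70 day difference ran from -0.46 to -0.28 when single arrays were left out, with the lowest value without G93A-SOD1 replicate 4. Under median centring it was -0.05, where the median of all genes was 0.28, against 0.05 under quantile normalization.

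Klrd1 encodes CD94, which pairs with NKG2 proteins to read a non-classical MHC class I molecule. In G93A-SOD1 blood its level lay between 8.77 and 9.82 (median 9.42) at 70 days, against 8.89 to 9.67 (median 9.33) in wild type blood. The 100 day values were 8.96 to 9.81 (median 9.63) in G93A-SOD1 blood and 8.73 to 10.10 (median 9.65) in wild type blood. The ranges overlapped and the genotype means lay close together at both ages. Means were 9.35 ± 0.34 in G93A-SOD1 and 9.34 ± 0.30 in wild type blood at 70 days, and 9.55 ± 0.27 in G93A-SOD1 and 9.54 ± 0.45 in wild type blood at 100 days (SD). The log2 difference was 0.00 (95% interval -0.34 to 0.35) at 70 days and 0.02 (-0.34 to 0.37) at 100 days, so the 70 day interval runs from 0.788-fold to 1.275-fold. Under median centring, where the median of all genes was 0.28 at 70 days and 0.12 at 100 days, the Klrd1 difference was 0.37 and 0.21.

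Il2rb encodes CD122, the receptor chain through which interleukin 2 and interleukin 15 sustain natural killer cells and memory T cells. Levels in G93A-SOD1 blood ran from 6.38 to 7.17 (median 6.80) at 70 days, against 6.57 to 7.64 (median 6.89) in wild type blood. At 100 days they ran from 6.52 to 7.40 (median 6.90) in G93A-SOD1 blood, against 6.70 to 7.32 (median 6.99) in wild type blood. The groups overlapped over most of their range. Its log2 difference was -0.19 (SE 0.14) at 70 days and -0.06 (SE 0.15) at 100 days, and neither passed limma's test (adjusted p = 0.901 and 1).

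Ncr1, the gene of the activating receptor NKp46, gave no signal above background. Its log2 value lay between 4.46 and 4.91 on the 31 blood arrays, where the lowest detected probe of an array lay between 5.00 and 5.597, and its smallest detection p-value was 0.195. Nothing about the genotypes follows from values below background.

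Among the granule genes, the granzymes could not be read. Gzma and Gzmb, the serine proteases that trigger death of the target cell, lay between 4.39 and 4.76 and between 4.38 and 4.78, with smallest detection p-values of 0.269 and 0.266. A low level and a probe that reads its transcript poorly cannot be told apart on these arrays, because each of the 3 genes has 1 probe. All 3 were also detected on 0 of 92 arrays over the 3 tissues.

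Prf1, which encodes perforin, was close to the detection limit. It was detected on 21 of 31 blood arrays, which were 6 of 8 G93A-SOD1 and 5 of 8 wild type arrays at 70 days, and 5 of 8 G93A-SOD1 and 5 of 7 wild type arrays at 100 days. Its level lay between 5.05 and 5.98 (median 5.54) in G93A-SOD1 blood at 70 days, against 4.91 to 6.43 (median 5.46) in wild type blood. In the 100 day groups the levels were 5.00 to 6.06 (median 5.38) in G93A-SOD1 blood and 4.86 to 6.05 (median 5.89) in wild type blood. Detected and undetected arrays occurred in every group, so part of these values are bounds. The log2 difference was 0.00 (SE 0.21) at 70 days and -0.23 (SE 0.22) at 100 days (limma adjusted p = 0.998 and 1).

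Nkg7 encodes a membrane protein of cytotoxic granules that takes part in their release. Its level lay between 9.86 and 10.75 (median 10.13) in G93A-SOD1 blood at 70 days, against 10.09 to 10.95 (median 10.32) in wild type blood. At 100 days it lay between 9.85 and 10.76 (median 10.49) in G93A-SOD1 blood, against 9.64 to 10.98 (median 10.35) in wild type blood. The 7 wild type arrays of 100 days were the most spread, with an SD of 0.57 against 0.33 in G93A-SOD1 blood of that age. The sign of the log2 difference was not the same at both ages, -0.19 (SE 0.19) at 70 days and 0.11 (SE 0.19) at 100 days. Neither difference passed limma's test (adjusted p = 0.944 and 1). The 100 day difference ran from 0.006 to 0.23 when single arrays were left out, with the lowest value without wild type replicate 7. With array weights it was -0.05, so its sign was not stable. A second, dimmer Nkg7 probe gave log2 differences of -0.35 (SE 0.18) at 70 days and 0.12 (SE 0.19) at 100 days (limma adjusted p = 0.853 and 1). The 2 probes followed each other only in part over the 31 arrays (Pearson r 0.5 after group means were removed, Spearman rho 0.415, given as a description).

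Ccl5, or RANTES, is a chemokine that natural killer cells and memory T cells store and secrete to attract other leukocytes. It ran from 9.73 to 11.10 (median 10.19) in G93A-SOD1 blood at 70 days, against 9.81 to 11.24 (median 10.60) in wild type blood. In blood of 100 days it ran from 10.06 to 11.14 (median 10.48) in G93A-SOD1 mice, against 9.81 to 11.21 (median 10.69) in wild type mice. The 8 G93A-SOD1 arrays of 70 days lay apart in 2 sets of 4, replicates 5 to 8 between 9.73 and 9.91 and replicates 1 to 4 between 10.47 and 11.10, which gave the largest Ccl5 SD of the groups (0.53, against 0.44 in wild type blood). The second Nkg7 probe split these arrays the same way, with 6.25 to 6.80 in replicates 5 to 8 and 7.13 to 7.39 in replicates 1 to 4. The brighter Nkg7 probe did not, with 9.98 to 10.38 in replicates 5 to 8 and 9.86 to 10.75 in replicates 1 to 4. Klrd1 leaned the same way as Ccl5 with some overlap, with 8.77 to 9.43 in replicates 5 to 8 and 9.42 to 9.82 in replicates 1 to 4. So did Klrb1c (6.59 to 7.10 against 7.05 to 7.80) and Il2rb (6.38 to 6.90 against 6.73 to 7.17). Prf1, near the detection limit, leaned the other way, with 5.52 to 5.98 in replicates 5 to 8 and 5.05 to 5.55 in replicates 1 to 4. The part of these sets in the genotype differences was not tested. The labels name no batch that separates these replicates. The log2 difference was -0.24 (SE 0.21) at 70 days and -0.10 (SE 0.22) at 100 days (limma adjusted p = 0.931 and 1).

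**Figure D1:**
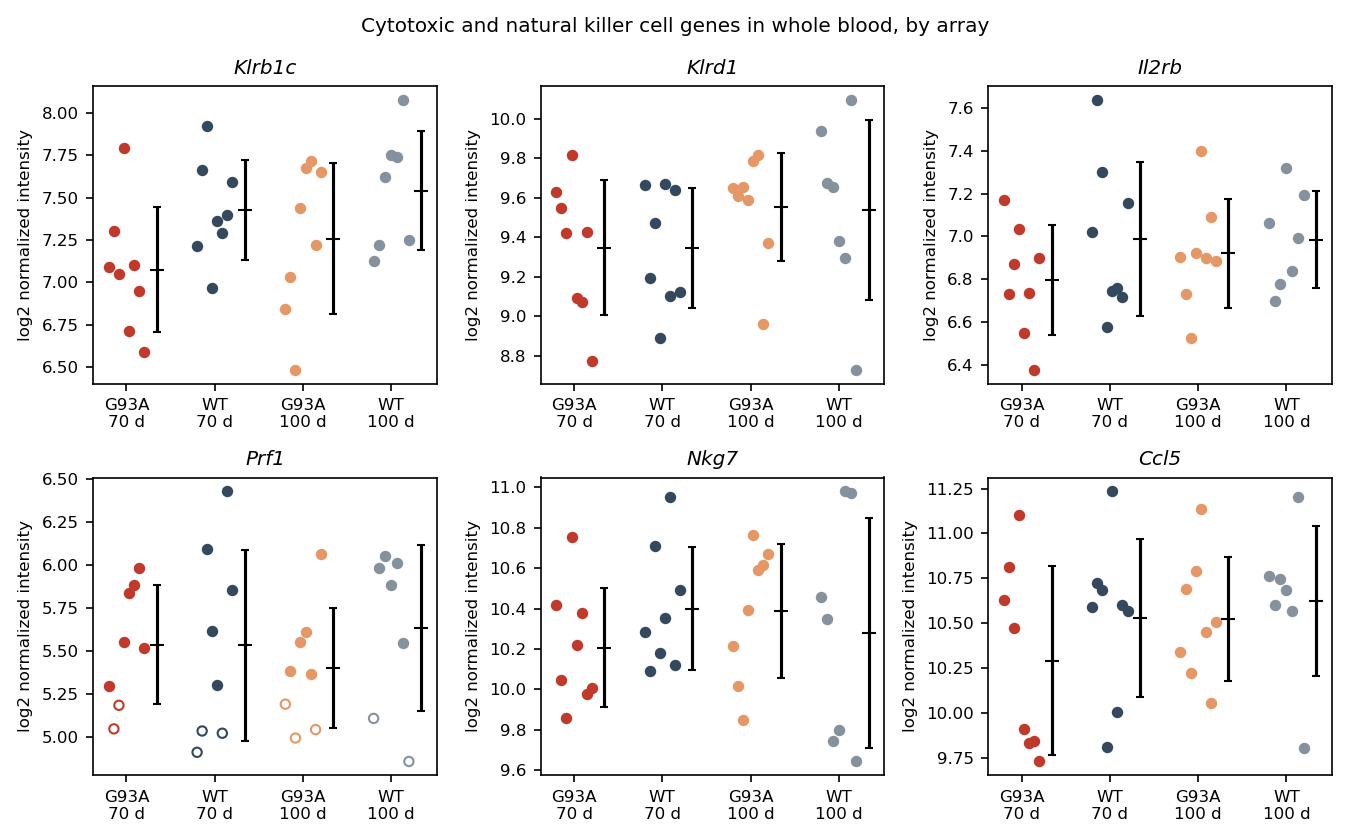
Log2 normalized intensity (y axis) of the 6 measured genes on each of 31 blood arrays, by group (x axis; G93A is G93A-SOD1, WT wild type). Filled points are detected and open points are not; the black dash and bar beside each group are its mean and SD. In every gene the G93A-SOD1 and wild type points of an age overlap, and only Prf1 has open points.

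Over the 6 measured genes, 0 passed limma's test between genotypes at either age, and 0 had an unadjusted p under 0.05. Of all 8403 genes tested, 0.0714% were called at 70 days (6 genes) and 0.0595% at 100 days (5 genes), so a share of 0 among the 6 lies near that background. Unadjusted p-values under 0.05 were found for 6.26% of all genes at 70 days and for 2.32% at 100 days. The median log2 difference of the 6 genes was -0.19 at 70 days and -0.08 at 100 days, where the median of all genes tested was 0.05 and 0.02. At each age 4 of the 6 genes lay below 0, as did 37.9% of all genes at 70 days and 45.8% at 100 days. These signs depended on the scaling. Under median centring, which moved the median of all genes up by 0.226 at 70 days and by 0.106 at 100 days, Nkg7, Ccl5 and Il2rb lay above 0 at 70 days and Ccl5 and Il2rb above 0 at 100 days.

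**Figure D2:**
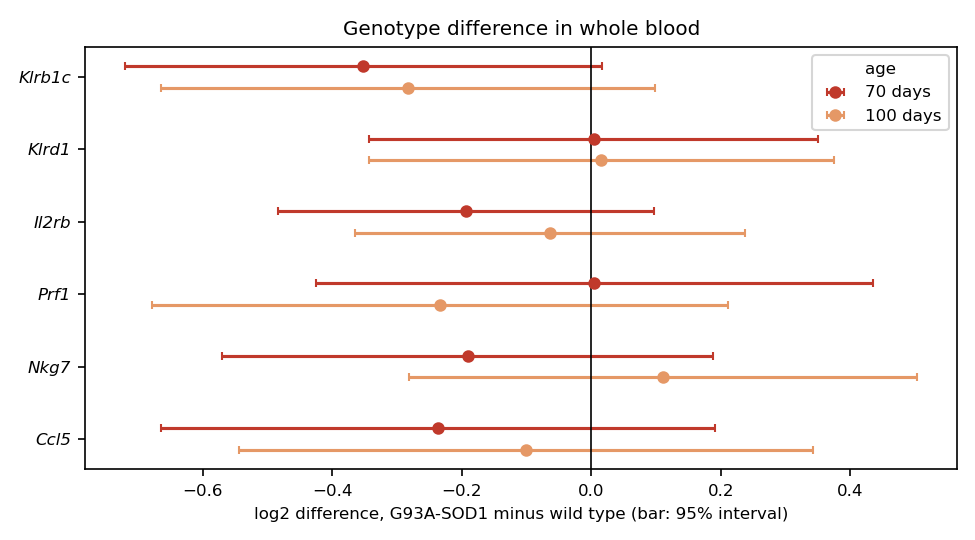
Log2 difference between G93A-SOD1 and wild type blood (x axis) for each measured gene (y axis), with its 95% interval from limma as a bar, at 70 and at 100 days. All 12 intervals include 0; the interval of Klrb1c at 70 days runs from -0.72 to 0.02.

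Whether the genotype difference itself differed with age was tested as an interaction term. This was called for 0 of the 6 genes and for 0 of 8403 genes (0%), with unadjusted p-values under 0.05 for 0 of the 6 and for 1.44% of all genes. Nkg7 had the largest interaction, 0.30 on the log2 scale (SE 0.27, limma adjusted p = 1), and Prf1 the lowest, -0.24 (SE 0.30). Klrb1c, with log2 differences of -0.35 and -0.28 at the 2 ages, had an interaction of 0.07 (95% interval -0.46 to 0.60).

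Between 70 and 100 days 0 of the 6 genes were called in either genotype by limma, with 0% of all genes called and 0 of the 6 below an unadjusted p of 0.05. In G93A-SOD1 blood the log2 difference, 100 days minus 70 days, was largest for Ccl5 (0.23, SE 0.21), followed by Klrd1 (0.21, SE 0.17), Klrb1c (0.18, SE 0.18), Nkg7 (0.18, SE 0.19) and Il2rb (0.12, SE 0.14), and lay at -0.14 (SE 0.21) for Prf1. In wild type blood the same difference was 0.19 (SE 0.18) for Klrd1, 0.11 (SE 0.19) for Klrb1c, 0.10 (SE 0.22) for Ccl5 and for Prf1, -0.12 (SE 0.19) for Nkg7 and 0.00 (SE 0.15) for Il2rb. Unadjusted p-values under 0.05 were found for 5.89% of all genes in G93A-SOD1 blood and for 9.71% in wild type blood. Of 65 markers of other blood cells 0 were called over the same interval in either genotype, and 12 in G93A-SOD1 and 6 in wild type blood had an unadjusted p under 0.05. In G93A-SOD1 blood their median log2 differences were -0.33 for B cells, -0.12 for T cells and 0.47 for neutrophils. They were 0.26 for monocytes, 0.03 for red cells and 0.31 for platelets, where the median of all genes was -0.006. In wild type blood the medians were -0.07 for B cells, -0.13 for T cells and -0.02 for neutrophils. They were 0.06 for monocytes, 0.10 for red cells and 0.30 for platelets, where the median of all genes was 0.03. The part of these cells in the age differences was not tested.

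Other genes of the same cells were taken from lists by function. Of 16 measured natural killer receptor genes beside the 9, 0 were called between genotypes at 70 or 100 days, and 1 and 0 had an unadjusted p under 0.05. At each age 11 of the 16 lay below 0, as did 37.9% of all genes at 70 days and 45.8% at 100 days. Their median log2 difference was -0.17 at 70 days and -0.06 at 100 days. These signs were not examined under median centring. Klre1, a lectin-like receptor of natural killer cells, had the smallest p at 70 days, with a log2 difference of -0.39 (SE 0.17, limma adjusted p = 0.764). S1pr5, a receptor that guides natural killer cells out of the bone marrow, had the smallest p at 100 days, with -0.30 (SE 0.17, limma adjusted p = 1).

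Of 13 other granule and killing genes 0 were called at either age, and 1 at each age had an unadjusted p under 0.05. That gene was Ccl4, a chemokine made by activated natural killer cells and by monocytes, with log2 differences of -0.55 (SE 0.20) at 70 days and -0.54 (SE 0.21) at 100 days (limma adjusted p = 0.706 and 1). The list's median was -0.08 at 70 days and -0.03 at 100 days. Ifng, Gzmc, Lyst and Serpinb9 were detected on 0 of 31 blood arrays. Among 12 transcription factors and cytokine signalling genes of natural killer cells 0 were called, with 0 unadjusted p-values under 0.05 at either age and medians of -0.05 and 0.03.

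Of 13 adaptor and signalling genes 0 were called, with 1 unadjusted p under 0.05 at 70 days and 0 at 100 days. Fcgr3, the Fc receptor that lets natural killer cells and myeloid cells bind antibody-coated targets, had a log2 difference of -0.74 (SE 0.21, limma adjusted p = 0.425) at 70 days. The list of MHC class I and stress ligands that natural killer receptors read had 6 measured genes, of which 0 were called and 2 had an unadjusted p under 0.05 at 70 days. Those were Clec2i, a ligand of a lectin-like receptor, at 0.59 (SE 0.20), and B2m, the light chain of MHC class I, at -0.25 (SE 0.09), with limma adjusted p = 0.687 and 0.706.

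Markers of the other blood cells were set beside these values. None of the 6 lists of T cells, B cells, neutrophils, monocytes, red cells and platelets had a gene called between genotypes by limma at either age (0 of 65 genes; 6 had an unadjusted p under 0.05 at 70 days and 2 at 100 days). Median log2 differences at 70 days were 0.17 for T cells (15 of 17 above 0), 0.39 for B cells (9 of 10 above 0), -0.14 for neutrophils (8 of 11 below 0), -0.51 for monocytes (7 of 8 below 0), 0.09 for red cells and -0.04 for platelets. At 100 days they were 0.13 for T cells (16 of 17 above 0), 0.13 for B cells (7 of 10 above 0), 0.49 for neutrophils (11 of 11 above 0), -0.14 for monocytes (8 of 8 below 0), 0.00 for red cells and 0.01 for platelets. Of all genes, 37.9% lay below 0 at 70 days and 45.8% at 100 days. The signs in these lists were not examined under median centring, which moved the median of all genes up. The mean level of the monocyte markers per array lay between 6.22 and 7.35 in G93A-SOD1 blood at 70 days, against 6.04 to 8.59 in wild type blood. For B cells it lay between 9.44 and 9.88 in G93A-SOD1 blood, against 8.87 to 9.89 in wild type blood. For neutrophils at 100 days it lay between 8.93 and 10.53 in G93A-SOD1 blood, against 8.76 to 10.10 in wild type blood. Of the markers of these lists on the array, Ccr2 and Nr4a1 of monocytes, Epb42 and Bpgm of red cells, Cr2 of B cells and Mmp8 of neutrophils were detected on 0 of 31 blood arrays. The part of these cells in the values of the 9 genes was not tested.

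From the lowest to the highest of the 31 arrays the measured genes spanned 2.40-fold (Il2rb) to 3.03-fold (Klrb1c), and the question was whether they varied together. Group means were removed from each log2 value, and the 15 pairs of the 6 genes were compared over the 31 arrays, with permutations of arrays within their group and Benjamini-Hochberg adjustment over the 15 pairs. Of the pairs, 4 had an adjusted permutation p under 0.05 for Pearson's r. Ccl5 and Klrd1 were the closest pair, with Pearson r 0.791 (permutation p = 1e-05, the smallest that 100000 permutations can give, adjusted p = 0.00015) and Spearman rho 0.734 (permutation p = 2e-05, adjusted p = 0.0003). Without the 2 arrays farthest from the median of Klrd1 the r was 0.74, and within the 4 groups it lay between 0.567 and 0.926. Klrd1 was the nearest of all 8402 other genes to Ccl5, whereas Ccl5 came 12th among the genes nearest to Klrd1. Without the 8 G93A-SOD1 arrays of 70 days, which fell into 2 sets by Ccl5, the r of this pair was 0.765 over 23 arrays (rho 0.633, permutation p = 7e-05, adjusted p = 0.001).

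The other 3 pairs that passed by Pearson's r all held Klrb1c. Its r with Ccl5 was 0.615 (Spearman rho 0.579, permutation p = 0.00033 and 0.0014, adjusted p = 0.0025 and 0.011), and 0.555 without the 2 arrays farthest from the median of Klrb1c. With Nkg7 the r was 0.532 (rho 0.467, permutation p = 0.0032 and 0.014, adjusted p = 0.016 and 0.052) and 0.475 without the 2 arrays farthest from the median of Nkg7. With Il2rb it was 0.492 (rho 0.457, permutation p = 0.0058 and 0.013, adjusted p = 0.022 and 0.052) and 0.406 without the 2 farthest arrays of Klrb1c. Within groups Klrb1c and Il2rb ranged from 0.0538 to 0.774. The last pair and that with Nkg7 thus passed by Pearson's r and missed by Spearman's rho. Without the 8 G93A-SOD1 arrays of 70 days none of these 3 pairs passed, with r 0.514 for Ccl5, 0.509 for Nkg7 and 0.527 for Il2rb (adjusted permutation p = 0.065, 0.067 and 0.065). Many other genes had correlations as high. Of 8402 genes ranked by r, Klrb1c came 165th for Ccl5, 288th for Nkg7 and 852nd for Il2rb, while among the genes nearest to Klrb1c those 3 came 6th, 15th and 26th.

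The other 11 pairs did not pass. Prf1, the perforin gene, had r 0.306 with Klrb1c (rho 0.29, permutation p = 0.092 and 0.13, adjusted p = 0.2 and 0.28; r 0.309 without the 2 farthest arrays of Prf1) and r -0.227 with Il2rb (rho -0.277, permutation p = 0.28 and 0.16, adjusted p = 0.42 and 0.3; r -0.127 without them). The remaining 9 pairs had r from -0.0217 to 0.34, with adjusted permutation p of 0.2 or more. Against the mean of the other 5 genes, r was 0.763 for Klrb1c, 0.661 for Ccl5, 0.476 for Klrd1, 0.426 for Nkg7, 0.205 for Il2rb and 0.118 for Prf1, as a description. The array values share one normalization, and the low values of Prf1 lie at the detection limit. Without the array of raised background the 4 pairs that passed had r between 0.488 and 0.789.

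**Figure D3:**
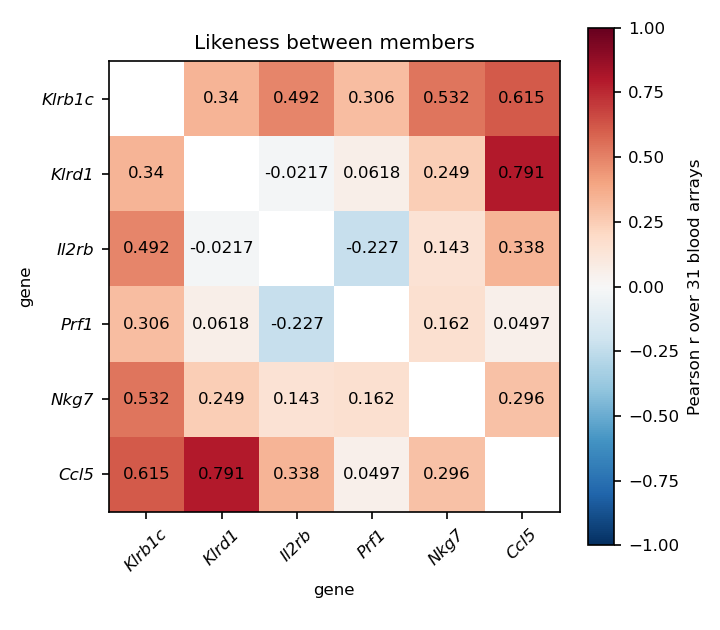
Pearson r between each pair of the 6 measured genes (both axes) over 31 blood arrays, on log2 values less their group means. The darkest square is Ccl5 with Klrd1 (0.791), and the row of Klrb1c is positive throughout, from 0.306 with Prf1 to 0.615 with Ccl5.

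**Figure D4:**
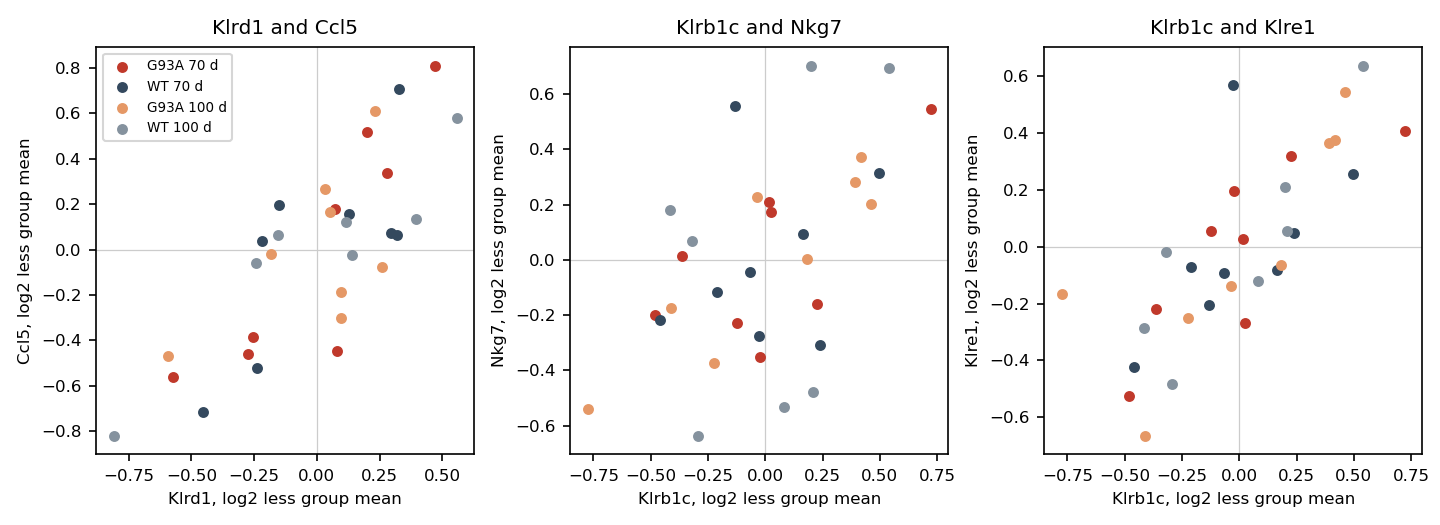
Log2 values less the group mean for Ccl5 against Klrd1, Nkg7 against Klrb1c and Klre1 against Klrb1c; each point is 1 of 31 blood arrays, coloured by group. The Ccl5 and Klrd1 points of all 4 groups lie along one rising band (r 0.791), and the Nkg7 and Klrb1c points scatter more (r 0.532).

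Genes outside the 9 were ranked by the Pearson r of their centred log2 values with the mean of the 6 measured genes over the 31 arrays. The first was Klre1 (r 0.778), followed by a probe without a symbol, ILMN_2611888 (r 0.768), and a second one, ILMN_1252295 (r 0.754). Hcst, which encodes the adaptor DAP10 of activating receptors, came next (r 0.723), and then Klri2, the partner of Klre1 (r 0.71), and ILMN_1253237 (r 0.687). Klra10 (r 0.672) and Klra8 (r 0.655), both receptors of the Ly49 family, Sh2d1a (r 0.652), the adaptor SAP of natural killer and T cells, and Sh2d2a (r 0.637), a T cell adaptor, completed the first 10. Over all 8403 genes the median r was 0.0201 and the highest 1% lay above 0.464. These values describe genes picked for their height, and carry no test.

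The rank was then read by list. Of 16 natural killer receptor genes 8 lay in the highest 1% (Klre1, Klri2, Klrg1, Klrb1b, Klra8, Klra9, Klra10 and Cd160), with a median r of 0.465 over the 16. Of 13 granule and killing genes 3 did (Fasl, the death ligand, and the chemokines Xcl1 and Ccl4), of 13 adaptors 2 (Hcst and Sh2d1a), of 12 transcription and cytokine genes 1 (Zeb2), and of 17 T cell genes 1 (Cd4). B cell, neutrophil, monocyte, red cell and platelet lists had 0 genes there, with median r of -0.0717, -0.0747, -0.0885, -0.112 and 0.0653. T cell genes had a median r of 0.329. The single genes differed in what lay nearest to them. Klre1 was nearest to Klrb1c (r 0.777), a probe without a symbol, ILMN_2627350, to Klrd1 (r 0.835), Klrd1 to Ccl5 (r 0.791), Med9 to Il2rb (r 0.883), Coq8b to Nkg7 (r 0.765) and Pdlim5 to Prf1 (r 0.7).

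Levels in the other tissues were read after all 92 arrays had been normalized together, which shifts the values from those above. Between the 15 wild type blood arrays and the 15 wild type muscle arrays, the mean of Ccl5 was 11.23 in blood, at least 50.1-fold higher than in muscle, where it was detected on 1 of 15 arrays. Against wild type spinal cord, where Ccl5 was detected on 0 of 15 arrays, blood was at least 73-fold higher. Such a bound is given where fewer arrays detected a gene than did not, and takes each muscle or cord array at its own value or its lowest detected signal, whichever is higher. Nkg7 averaged 11.04 in blood, at least 46-fold higher than in muscle and at least 63.6-fold higher than in spinal cord, with 1 of 15 arrays detected in each. Klrd1 was detected on 0 of 15 wild type arrays of either tissue, and blood was at least 26.2-fold higher than muscle and at least 36.5-fold higher than spinal cord. Prf1 was likewise detected on none of them, with ratios of 1.71-fold and 2.38-fold by the same rule. In wild type blood it was detected on 5 of 8 arrays at 70 days and 5 of 7 at 100 days. Its undetected values entered the blood mean as they were, so these ratios are not lower bounds.

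Klrb1c and Il2rb were detected on more arrays of the other tissues. Klrb1c averaged 8.37 in wild type blood, at least 6.76-fold higher than in muscle and at least 9.91-fold higher than in spinal cord, with 4 of 15 wild type arrays detected in each. Over both genotypes it was detected on 10 of 30 muscle and 7 of 31 spinal cord arrays. Il2rb averaged 7.87 in wild type blood, 6.01 in muscle and 5.56 in spinal cord (3.63-fold and 4.97-fold higher in blood), and was detected on 29 of 30 muscle and 30 of 31 spinal cord arrays. Over all arrays the blood values of Nkg7, Klrd1, Klrb1c, Ccl5 and Il2rb lay above those of the other tissues without overlap. These differences between tissues were not tested.

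**Figure D5:**
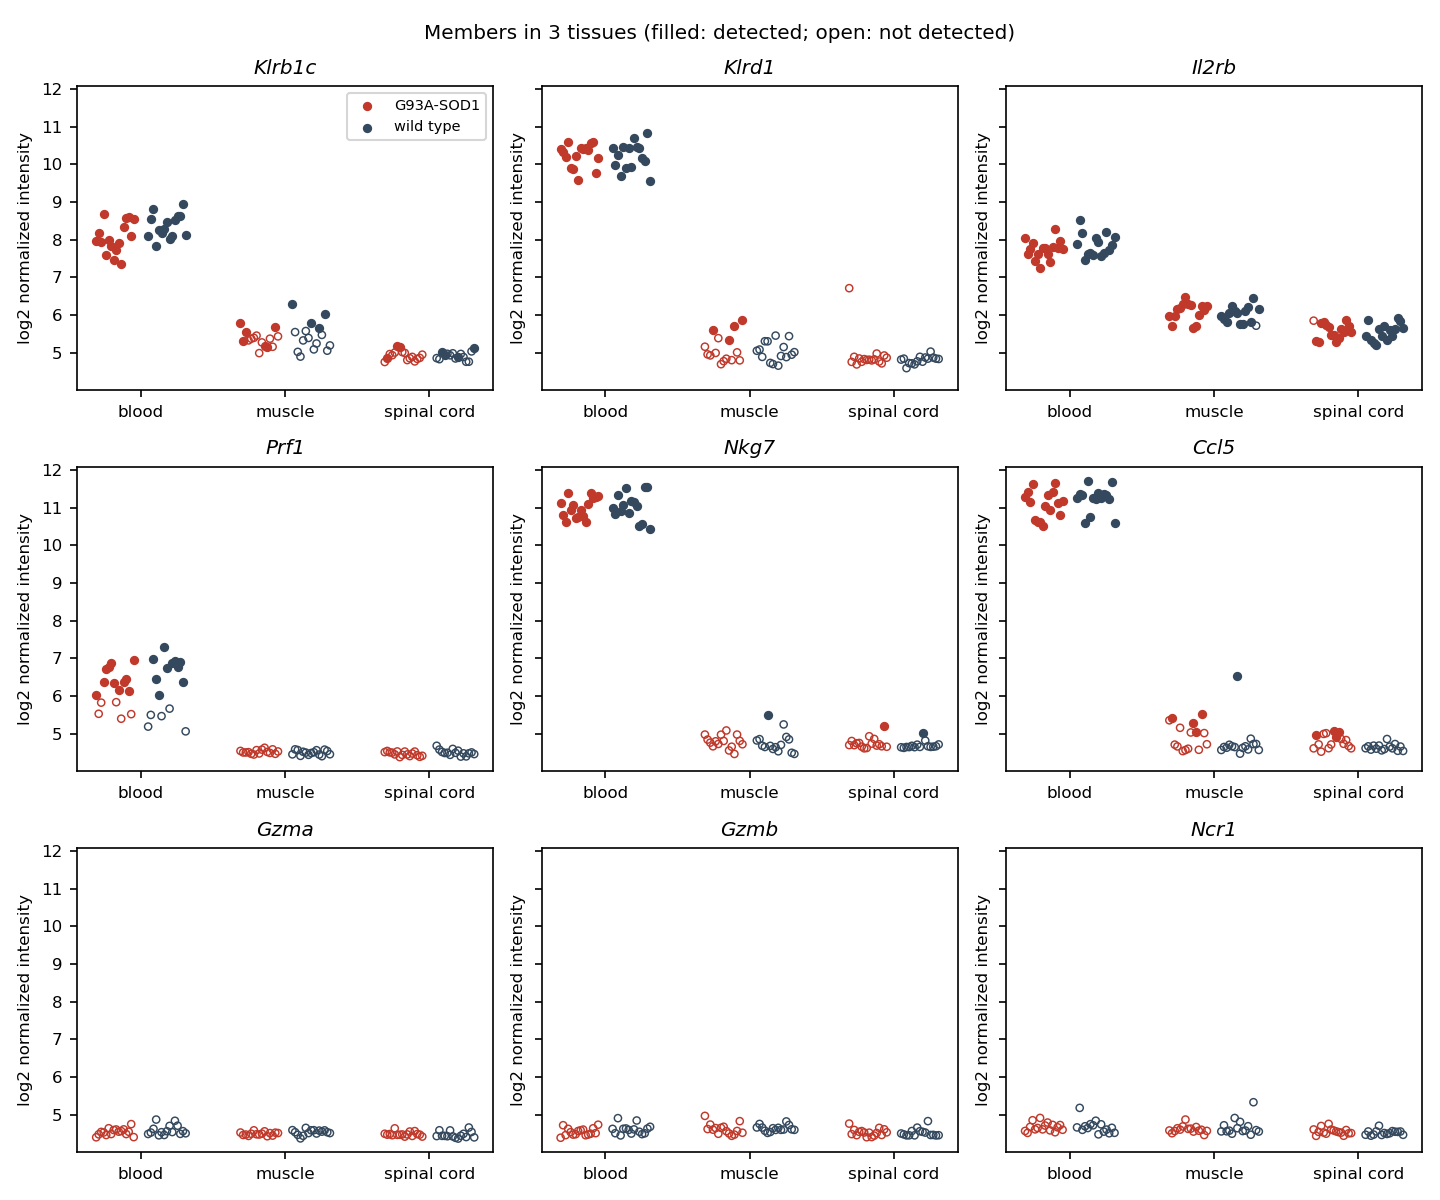
Log2 normalized intensity (y axis) of the 9 genes on 92 arrays normalized together, by tissue (x axis); red points are G93A-SOD1 and dark blue points wild type, filled where detected and open where not. Gzma, Gzmb and Ncr1 have open points only, between 4.37 and 5.34; the open Klrd1 point at 6.72 in spinal cord is G93A-SOD1 replicate 1 of 70 days, 1 of 5 spinal cord arrays that stand apart.

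Genotypes could be compared in muscle and spinal cord for Klrb1c and Il2rb, which passed the filter there. Neither was called by limma at either age in either tissue, where 0.011% (70 days) and 10.8% (100 days) of all genes were called in muscle and 0.0278% and 0.0185% in spinal cord. Unadjusted p-values under 0.05 were found for 0 of the 8 comparisons. Log2 differences ran from -0.11 for Il2rb in spinal cord at 100 days (SE 0.15) to 0.18 for Il2rb in spinal cord at 70 days (SE 0.15). Klrb1c was detected on only 10 of 30 muscle and 7 of 31 spinal cord arrays. In spinal cord at 100 days it was detected on 0 of 8 G93A-SOD1 arrays. Its differences in these tissues thus rest mostly on undetected values, and nothing about the genotypes follows from them.

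For the genes below that filter the number of arrays that detected them was compared. Klrd1 was detected on 4 of 15 G93A-SOD1 muscle arrays (1 at 70 and 3 at 100 days), against 0 of 15 wild type muscle arrays. Ccl5 was detected on 4 of 16 G93A-SOD1 spinal cord arrays, against 0 of 15 wild type ones, and on 4 of 15 G93A-SOD1 muscle arrays, against 1 of 15 wild type ones. None of these passed a two-sided Fisher's exact test, with p = 0.0996, 0.101 and 0.33 (adjusted over 5 such comparisons, 0.253, 0.253 and 0.55). For Klrd1 in muscle and Ccl5 in spinal cord, every detection already fell on a G93A-SOD1 array. With so few detections no split in that direction is more uneven, so the test could not have passed. These counts therefore decide nothing about the genotypes. Leaving out the 5 spinal cord arrays that stand apart, by a low median or by transcripts of muscle, the Ccl5 count was 4 of 14 G93A-SOD1 arrays, against 0 of 12 wild type arrays. Nkg7 was detected on 1 of 16 G93A-SOD1 and 1 of 15 wild type spinal cord arrays, and Gzma, Gzmb, Prf1 and Ncr1 on none.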

How the data were processed

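For every one of the 92 arrays, a raw intensity was deposited for each of 24613 probes, non-normalized per the file headers, together with the authors' detection p-value. The deposited series matrix held the authors' log2 values, normalized in a way not given in the sources used here. How the scanner software made the intensities is also not given there.

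Limma's neqc (offset 16) corrected the background, inferred from the detection p-values, and quantile normalized the arrays of a tissue. One gene symbol was annotated to 20984 probes, several to 1 probe and none to 3628 probes; Entrez identifiers matched 20968 probes to RefSeq genes (GRCm38.p6) and changed 0 symbols. Lines lacking an identifier (7, holding 0.00539% of the signal) were dropped. Probes were kept for a tissue where the detection p-value was below 0.05 on 7 or more arrays, and the probe with the highest mean represented its gene. The 4 groups of a tissue shared one limma fit, with Benjamini-Hochberg adjustment over all genes at 0.05. Every p-value of a genotype or age difference is from limma. The procedure was tested on simulated data.

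Within-group pairs of blood arrays numbered 105, with 0 identical pairs and Spearman rho from 0.58 to 0.927. The genes and the lists were chosen with earlier results of these data known. Genes named beside the 9 were up to 2 of each list with the smallest p and the 10 with the highest r to the mean of the 6 measured genes. Also named were the listed genes in the highest 1% of r and the gene nearest to each of the 6. All of these were picked by their values in these same data. Markers of the blood label and some listed genes detected on no blood array were named as well. The promoter motifs were picked from textbook knowledge of these factors.

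Alternative settings changed the background correction (none), the normalization (all tissues at once, or median centring), the filter (none), the unit tested (each probe), the arrays fitted (the 2 groups alone), or the model (array weights, trended robust variance, replicate number as a block). Other alternatives used the series matrix or left out each blood array in turn. Fits without the blood array of raised background (median intensity above 150) and without 5 spinal cord arrays that stand apart (series matrix median below 7, or log2 Ckm, a muscle transcript, above 10) were added after the data were seen, and their thresholds were set on those values. Correlations without the G93A-SOD1 blood arrays of 70 days were likewise a later addition. Software was R 4.3.3, limma 3.58.1, version 1.17.8 of data.table, Python 3.11.15, scipy 1.17.1 and matplotlib 3.10.9.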

Additional observations from a re-analysis of the deposited data

Results flagged for a closer look

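Outlying arrays were looked for in each gene of the 9 and each group in which at least 1 array detected it, 49 groups over the 3 tissues. In 4 of them 1 array lay farther from the rest than Dixon's 95% limit allows. In each of the 4 no other array detected the gene, so the group entered the screen only through that array. The limit's chance rate of about 1 in 20 groups therefore does not apply, and the flags are a description.

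Nkg7 had a log2 value of 5.233 in wild type muscle of 70 days, replicate 5, where the other 7 arrays lay between 4.57 and 4.796 and did not detect it. Ccl5 had 6.203 in wild type muscle of 70 days, replicate 7, against 4.46 to 4.67 on the other 7 arrays, none of which detected it. In G93A-SOD1 spinal cord of 100 days, Nkg7 had 5.593 in replicate 7, against 4.73 to 5.13 on the other 7 arrays. In wild type spinal cord of 100 days, Nkg7 had 5.28 in replicate 1, against 4.72 to 4.96 on the other 6 arrays. Both spinal cord arrays were the only ones of their group that detected Nkg7. In blood 0 groups held such an array. The screen reads 1 gene at a time and does not look for an array that is low in several genes. Wild type replicate 7 of 100 days held the lowest blood value of Prf1 (4.86), Nkg7 (9.64) and Klrd1 (8.73), while its Il2rb lay above the group mean. Without it the 100 day log2 difference was -0.37 for Prf1 and -0.24 for Ccl5, against -0.23 and -0.10 with it.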

How the results depend on the processing

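Of 1336 values of the 6 genes under 43 alternative settings, 0 passed the threshold, with a smallest adjusted p of 0.435. The directions were less stable, and the causes were not tested. Under median centring the log2 differences were, at 70 days, 0.17 for Nkg7, 0.10 for Ccl5 and 0.0944 for Il2rb; at 100 days, 0.0305 for Ccl5 and 0.0994 for Il2rb; for the interaction, -0.16 for Klrd1, -0.0655 for Klrb1c and -0.0698 for Ccl5; and -0.00807 for Il2rb between ages in G93A-SOD1 blood. With array weights they were, at 70 days, -0.203 for Prf1 and -0.0302 for Klrd1; at 100 days, -0.0498 for Nkg7 and -0.0752 for Klrd1; for the interaction, -0.0449 for Klrd1 and -0.0129 for Klrb1c; and 0.0159 for Nkg7 between ages in wild type blood. Without background correction Prf1 at 70 days was -0.000726. Without the blood array of raised background Prf1 was -0.0677 and Klrd1 -0.0306 at 70 days. In muscle, Klrb1c was 0.0275 at 70 days and 0.0143 at 100 days under median centring, and Il2rb at 100 days was -0.000597 without background correction and -0.000266 in the series matrix. In spinal cord, Il2rb was -0.0301 at 70 days and 0.0843 at 100 days under median centring; in the series matrix Klrb1c was -0.13 and 0.15, and Il2rb -0.07997 and 0.101, at 70 and 100 days.

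Leaving out single blood arrays, Klrd1 ran from -0.0634 to 0.0853 at 70 days, from -0.119 to 0.108 at 100 days and from -0.122 to 0.105 for the interaction; Prf1 ran from -0.084 to 0.131 at 70 days; the interaction ran from -0.000899 to 0.252 for Ccl5 and from -0.00142 to 0.179 for Klrb1c; and between ages in wild type blood Ccl5 ran from -0.00513 to 0.232 and Il2rb from -0.0639 to 0.0886. The number of genes called in blood, 6 at 70 days and 5 at 100 days, was 1 at each age under median centring, 3 at 100 days in a fit of only the groups compared and 13 with array weights. Between ages it was 0 in both genotypes, 7 in G93A-SOD1 blood with array weights, and 1 in wild type blood without background correction and 1 with the series matrix. Without single arrays it ran from 3 to 8 at 70 days, from 3 to 9 at 100 days, from 0 to 1 between ages in G93A-SOD1 blood and from 0 to 3 in wild type blood. The 3 genes without a detected array have only a bound, which is the lowest detected signal.

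The labels give the groups the same replicate numbers and do not say that they pair animals. Over 45 same-numbered blood pairs the median correlation of deviations was 0.144 (-0.465 to 0.637), against -0.0137 for others, and 8 of 31 arrays correlated best with their own number. With the replicate number as a block, Klrb1c was -0.35 at 70 days (limma adjusted p = 0.729) and -0.29 at 100 days, Il2rb between ages in wild type blood was 0.00646, and 1 gene in G93A-SOD1 and 2 genes in wild type blood were called between ages, against 0 without it. The block changed no call of the 6 genes.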
